A study of Saccharomyces cerevisiae with 4 samples.

Results

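The genes described here encode the yeast proteasome, the barrel-shaped protease that degrades ubiquitin-tagged proteins. Members were chosen by gene symbol alone, as every gene named PRE1 to PRE10, PUP1 to PUP3, SCL1, RPT1 to RPT6, or RPN followed by a number. This gave 34 of 6211 open reading frames on the arrays, all of them with a value on each of the 4 arrays. By textbook assignment 14 encode the core particle, 10 the base and 8 the lid of the regulatory particle. The remaining pair, RPN4 and RPN14, encode proteins outside the mature particle. SEM1, a small lid subunit, was not analysed here.

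The samples were cultures of a budding yeast (Saccharomyces cerevisiae) strain labelled GCN2c and of a wild-type (WT) strain, both in log phase in YPD rich medium at 28 °C, harvested at an Ab660 of 0.6. The submitters describe GCN2c in one place as a mutant and in another as overexpressing GCN2, the kinase that phosphorylates the initiation factor eIF2 when uncharged tRNA accumulates. The labels name no promoter, allele or other marker of either strain, and no drug or other treatment. Each of 4 two-colour arrays carried cDNA of both strains. GCN2c was labelled with Cy5 on replicates 1 and 3, called the Cy5 replicates here, and with Cy3 on the 2 others.

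In the core particle, a pair of alpha rings holds the gate and a pair of beta rings holds the proteolytic sites. The regulatory particle caps it: its base unfolds substrates with a ring of ATPases and its lid removes ubiquitin chains. Yeast proteasome genes share the transcription activator Rpn4, which is itself a proteasome substrate. Gcn4, the activator made when Gcn2 is active, is also degraded by the proteasome, after marking by the SCF-Cdc4 ubiquitin ligase.

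All values are the deposited log ratios, read as log2 of GCN2c over WT, so that a negative value means less mRNA in the strain labelled GCN2c. Neither this direction nor the log base is stated in the labels: both are assumptions, and turning every array would swap the signs throughout. Over all genes replicates 1 and 3 correlated at r = 0.45, and each correlated positively with the arrays of exchanged dyes (r = 0.18 and 0.29). Unaligned ratios of a shared response would have opposite signs, but a dye effect common to the arrays would also correlate positively. These correlations therefore do not decide whether the dye swap had been aligned, which was not tested. Replicates 2 and 4 were nearly identical: over all genes the SD of their differences was 0.06, against 0.85 between replicates 1 and 3, and the members' values on them differed by 0.003 to 0.004. They were averaged and counted as 1 sample, the Cy3 pair, so that n = 3 throughout unless stated. Where 3 values follow each other, they are those of replicate 1, replicate 3 and the Cy3 pair. The submitters call the arrays biological replicates, but how the cultures were kept apart is not described, so p-values measure the spread between these arrays, which may be partly technical. In bulk cultures a lower level per cell and fewer expressing cells cannot be told apart. Array medians lay between -0.03 and -0.09. GCN2 itself stood at -0.39 and 0.10 on the Cy5 replicates and at -0.68 on the Cy3 pair, a mean of -0.33 ± 0.39 (SD, n = 3; limma adjusted p = 0.453). A higher GCN2 mRNA level, as the word overexpressing would have it, was therefore not measured at this spot.

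No proteasome gene passed the test, and yet nearly all of them had a ratio slightly below 0. Of the 34 members, 33 had a negative mean log2 ratio, including all 32 subunits of the particle, whereas 55.9% of the 6130 genes tested had one. The median member stood at -0.28, a GCN2c level of 0.823 times WT, against a median of -0.06 over all genes. RPN14, an assembly chaperone of the base, was the 1 member with a positive mean, at 0.11. With limma's moderated test and Benjamini-Hochberg adjustment over all genes at 0.05, none of the 34 rose, where 1.73% of all genes did. None fell, where 0.326% of all genes did, and the members' adjusted p-values ran from 0.166 to 0.905. At an unadjusted p under 0.05 there were 3 members with negative ratios (PRE1, RPT1 and PRE3), 8.82% of the list, against 10.7% of all genes, and none with a positive ratio. One-class SAM, the test named by the submitters, called none of the 34.

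The offset was present on each array. The median member stood at -0.34 on replicate 1, -0.19 on replicate 3 and -0.35 on the Cy3 pair, against -0.03, -0.05 and -0.09 for the median of all genes. Ratios were negative for 30, 28 and 29 of the 34 members on these 3 replicates. Among all tested genes with a value there, they were negative for 3223 of 6118, 3255 of 6009 and 3415 of 6130. Of the members, 22 were below 0 on all 3 replicates, or 64.7%, against 28.1% of the 5997 genes with 3 values. No member was above 0 on all 3, against 18.5% of those genes. Another 11 members had both signs, and RPT5 stood at exactly 0 on replicate 3. Members were chosen with earlier results of these data known and share 3 replicates, so these shares are descriptions with no p-value. With the Cy3 pair turned, the reading in which the authors had not aligned the dye swap, 21 of 34 had a negative mean. The median member was then at -0.08, against a median of 0.03 over all genes.

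**Figure D1:**
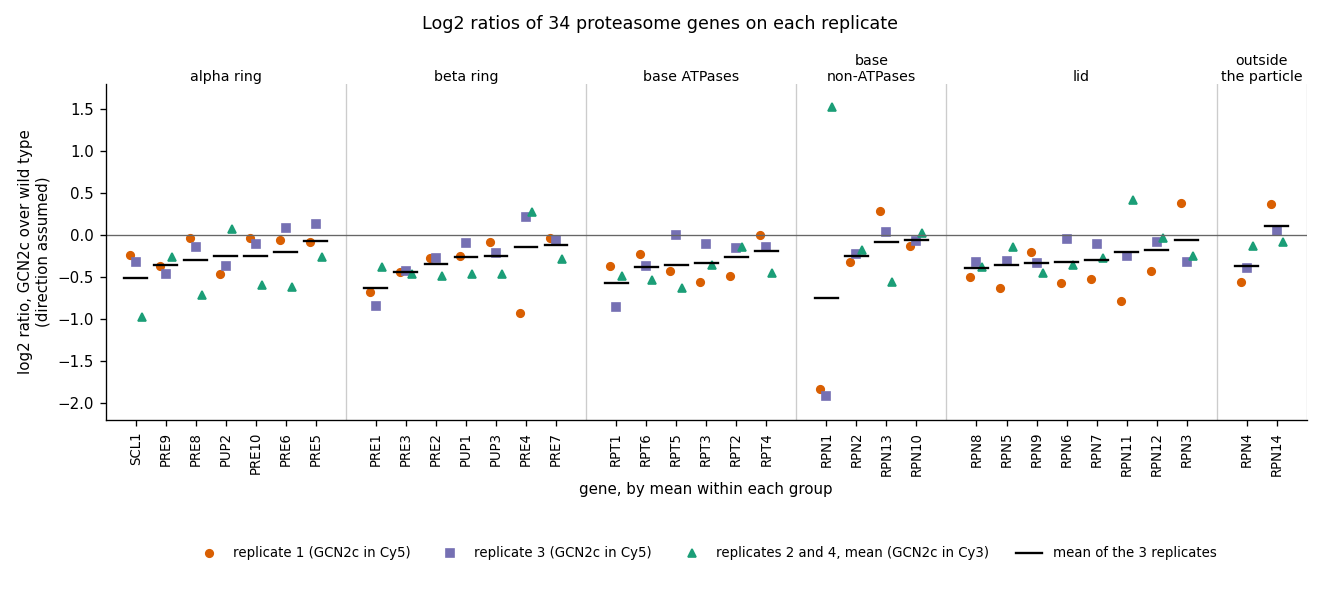
Log2 ratio (vertical axis) of each of the 34 proteasome genes (horizontal axis, grouped by subassembly and ordered by mean) on replicate 1, replicate 3 and the Cy3 pair, with a bar at the mean of the 3. Nearly all bars lie just below 0 and 30 of 34 lie within 0.5 of it, while the points of RPN1 lie at -1.84, -1.92 and 1.52.

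For most members the offset was too small for the 95% confidence interval of the mean to exclude 0. The mean log2 ratio of 30 members lay within 0.5 of 0, and that of all 34 within 1. The 95% confidence interval of a member's mean, from limma's standard error, extended 0.48 to either side at the median member and 0.43 to 0.74 for members other than RPN1. It lay wholly below 0 for 3 members. Apart from RPN1, the intervals reached no lower than -1.11 and no higher than 0.60. The interquartile range of the members' means was 0.17, against 0.55 over all genes, and their median SD between replicates was 0.23, against 0.34.

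The alpha ring encloses the entry pore, and all 7 of its genes had negative means, from -0.51 to -0.07. SCL1 stood at -0.24 and -0.32 on the Cy5 replicates and at -0.98 on the Cy3 pair, a mean of -0.51 ± 0.41 (SD, n = 3; limma adjusted p = 0.277). Its values shared a sign, and the array with GCN2c in Cy3 was far below the others. PRE8 showed the same order, with -0.04 and -0.14 on the Cy5 replicates and -0.72 on the Cy3 pair. PRE10 (-0.03, -0.11 and -0.59) and PRE6 (-0.06, 0.08 and -0.62) also lay lowest on the Cy3 pair, given last in each case. PRE9 encodes the core subunit that yeast can live without. It was even, at -0.37, -0.46 and -0.26, a mean of -0.36 ± 0.10 (limma adjusted p = 0.311). PUP2 went the other way across the dyes, at -0.47 and -0.36 on the Cy5 replicates and 0.07 on the Cy3 pair. PRE5 was nearest to 0, at -0.09, 0.14 and -0.26, a mean of -0.07.

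The beta ring carries the active sites, and its 7 genes had means from -0.63 to -0.12. Those of the 3 catalytic subunits were negative on every replicate. PRE3, for the caspase-like site, gave -0.44, -0.43 and -0.46 in that order, a mean of -0.44 ± 0.02 (SD, n = 3; limma adjusted p = 0.234). It was the most even of the 34 across replicates and dyes. PRE2, for the chymotrypsin-like site, gave -0.27, -0.27 and -0.49, a mean of -0.34 ± 0.13 (limma adjusted p = 0.340). PUP1, for the trypsin-like site, gave -0.24, -0.09 and -0.46, a mean of -0.26 ± 0.19 (limma adjusted p = 0.466). These catalytic genes thus stood between 0.735 and 0.833 times WT, with none past the threshold.

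Among the non-catalytic beta subunits, PRE1 had the smallest p-value of the 34. It stood at -0.68, -0.84 and -0.37, a mean of -0.63 ± 0.24 or 0.646 times WT (limma adjusted p = 0.166). All its values were below the array medians. PUP3 (-0.09, -0.21 and -0.46) and PRE7 (-0.03, -0.05 and -0.28) were closer to 0 and again lowest on the Cy3 pair. PRE4 disagreed between replicates: it stood at -0.93 on replicate 1, against 0.22 on replicate 3 and 0.28 on the Cy3 pair. Its mean of -0.14 rests on replicate 1 and was 0.25 without that replicate.

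The base ATPases Rpt1 to Rpt6 form the unfolding ring, and their 6 genes had means from -0.57 to -0.19. RPT1 stood at -0.36, -0.86 and -0.49 in that order, a mean of -0.57 ± 0.26 (SD, n = 3; limma adjusted p = 0.196). RPT6 gave -0.22, -0.37 and -0.53, a mean of -0.37 ± 0.15 (limma adjusted p = 0.309). Both were negative on all replicates, with values that spread by less than 0.5 around their means. RPT3 (-0.55, -0.11 and -0.35) and RPT2 (-0.48, -0.16 and -0.14) were also negative on every replicate and lowest on replicate 1. RPT5 gave -0.43, 0.00 and -0.63. RPT4 was nearest to 0, at 0.01, -0.14 and -0.45. The Rpt genes therefore shared an average near -0.34 at their median without sharing an order of the replicates.

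The 4 other base genes encode ubiquitin receptors (Rpn1, Rpn10 and Rpn13) and the scaffold Rpn2. RPN2 was negative and even, at -0.32, -0.22 and -0.18 in that order, a mean of -0.24 ± 0.07 (SD, n = 3; limma adjusted p = 0.476). RPN10 lay at 0 within its spread, at -0.13, -0.07 and 0.03, a mean of -0.06 ± 0.08 (limma adjusted p = 0.892). RPN13 stood at 0.29 and 0.04 on the Cy5 replicates and -0.56 on the Cy3 pair, so that its mean of -0.08 rests on the Cy3 pair.

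RPN1 stood apart from every other member. It gave -1.84 and -1.92 on the Cy5 replicates, and 1.52 on the Cy3 pair, where the dyes were exchanged. Its mean of -0.74 ± 1.96 (SD, n = 3; limma adjusted p = 0.600) is therefore no estimate of a change, and its 95% confidence interval ran from -2.54 to 1.05. The difference between the mean of the Cy5 replicates and that of the Cy3 pair was -3.40 for RPN1 and at most 0.94 in size for the other 33 members. Of 5997 genes, 33 differed between the orientations by at least as much, RPN1 included. Without the Cy3 pair the RPN1 mean was -1.88 (limma adjusted p = 0.0115), the only member called in that fit. With that pair turned it was -1.76 (adjusted p = 0.921). With the Cy3 pair set aside, both arrays left carry GCN2c in Cy5, so that dye and strain cannot be told apart. Leaving RPN1 out moved the median of the base from -0.30 to -0.26.

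**Figure D2:**
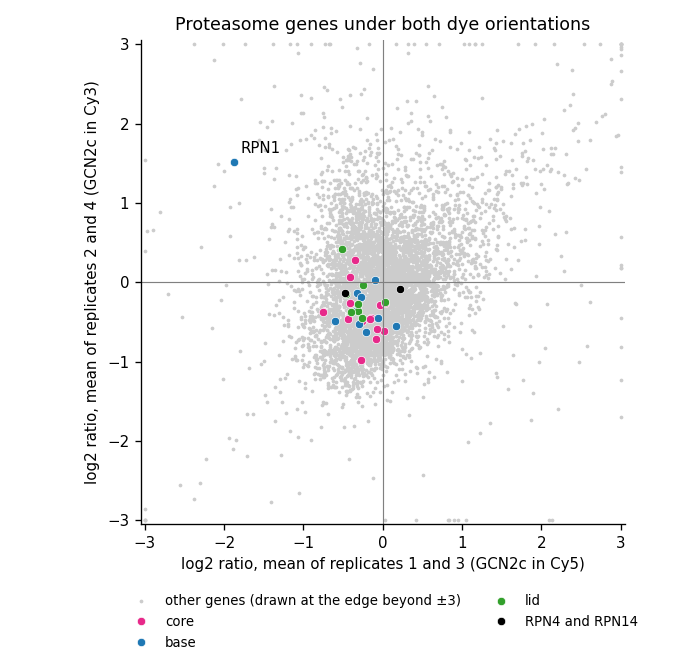
Mean log2 ratio of the Cy5 replicates (horizontal axis) against that of the Cy3 pair (vertical axis), for every gene tested (grey) and for core, base and lid genes and RPN4 and RPN14 (coloured). The proteasome genes gather to the lower left of 0 and RPN1 lies apart from them at the upper left, negative in one dye orientation and positive in the other.

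The lid holds the deubiquitinase Rpn11, its partner Rpn8 and a horseshoe of structural subunits, and its 8 genes had means from -0.40 to -0.06. RPN8 was the lowest, at -0.49, -0.32 and -0.38 in that order, a mean of -0.40 ± 0.09 (SD, n = 3; limma adjusted p = 0.278). RPN5 gave -0.63, -0.31 and -0.14, a mean of -0.36 ± 0.25 (limma adjusted p = 0.348), and RPN9 gave -0.20, -0.34 and -0.45, a mean of -0.33 ± 0.13 (limma adjusted p = 0.356). Each of the 3 was negative throughout. RPN6 (-0.57, -0.04 and -0.36), RPN7 (-0.53, -0.10 and -0.27) and RPN12 (-0.43, -0.08 and -0.03) were negative too, with replicate 1 the lowest. RPN11 ran from -0.79 on replicate 1 and -0.25 on replicate 3 to 0.43 on the Cy3 pair, and its mean was 0.09 without replicate 1. RPN3 was positive on replicate 1, at 0.38, and stood at -0.32 on replicate 3 and -0.25 on the Cy3 pair.

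RPN4 encodes the activator that binds proteasome promoters, and its own mRNA had a negative ratio on every replicate. It stood at -0.56 on replicate 1, -0.40 on replicate 3 and -0.13 on the Cy3 pair, a mean of -0.36 ± 0.22 (SD, n = 3; limma adjusted p = 0.336). The corresponding lid medians were -0.51, -0.28 and -0.26. The core medians were -0.24, -0.18 and -0.46, and the base medians -0.34, -0.15 and -0.40. RPN14 gave 0.37, 0.05 and -0.08, a mean of 0.11 ± 0.23 (limma adjusted p = 0.777).

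Core, base and lid did not separate beyond the spread between replicates. The median core gene had a mean of -0.26, the median base gene -0.30 and the median lid gene -0.31. These means count both Cy5 replicates but the Cy3 pair as 1 sample, so the dye orientations are not weighted equally. With a dye term, which weights them equally, the medians were -0.32 for core, -0.24 for base and -0.30 for lid. The core median minus the lid median was 0.27 on replicate 1, 0.10 on replicate 3 and -0.20 on the Cy3 pair, or 0.06 ± 0.24 (SD, n = 3). The order of core and lid was thus opposite in the dye orientations. Core minus base came to 0.00 ± 0.08 and base minus lid to 0.05 ± 0.17. The alpha and beta rings differed by 0.04 ± 0.16, alpha minus beta. The base ATPases minus the other base genes came to -0.19 ± 0.20, with values of -0.17, -0.00 and -0.39. Of the 14 core genes 10 were lower on the Cy3 pair than on the Cy5 mean, as were 5 of 10 base genes and 3 of 8 lid genes. Over all genes this held for 3550 of the 6130 tested, where a missing Cy5 value was left out of the mean.

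**Figure D3:**
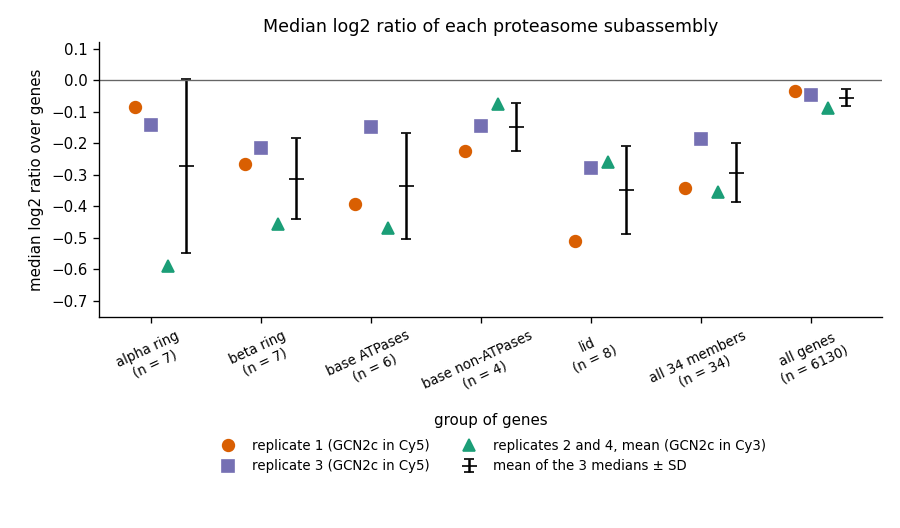
Median log2 ratio over the genes of each subassembly, of all 34 members and of all 6130 genes tested (vertical axis), on replicate 1, replicate 3 and the Cy3 pair, with the mean of the 3 medians ± SD. The subassemblies' error bars overlap, and the alpha ring median is lowest on the Cy3 pair (-0.59) whereas the lid median is lowest on replicate 1 (-0.51).

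The arrays also differed by chromosome, which touches the comparison of core and lid. Over all genes, chromosome medians ran from -0.35 (chromosome XII) to 0.18 (chromosome VI) on the Cy3 pair, and from -0.19 (chromosome XIV) to 0.26 (chromosome I) on replicate 1. On replicate 3 they stayed between -0.09 and 0.06. The 3 members on chromosome VI, PRE4, RPN11 and RPN12, stood at 0.28, 0.43 and -0.03 on the Cy3 pair, against a median of -0.35 over the 34. After each array was centred on each chromosome's median, the core minus lid difference was 0.24, 0.15 and -0.13 in that order. The median of all 34 members was then -0.25, -0.15 and -0.24, against -0.01, -0.01 and 0.01 over all genes, so the offset of the members was still present. With this centring 32 of 34 means were negative, while the median of the means of all genes was -0.0075.

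**Figure D4:**
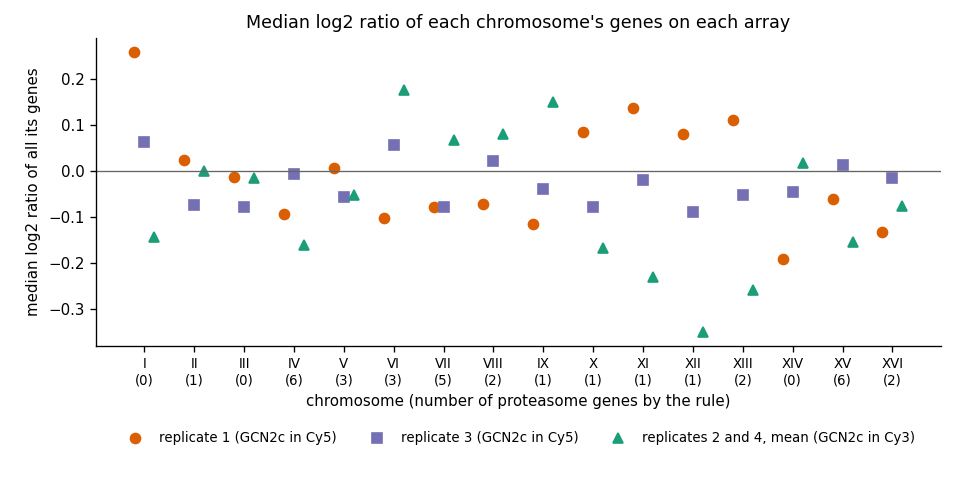
Median log2 ratio of all genes of each chromosome (vertical axis) on replicate 1, replicate 3 and the Cy3 pair, with the number of proteasome genes in brackets under each chromosome. Medians spread from -0.35 to 0.18 on the Cy3 pair and stay within 0.09 of 0 on replicate 3.

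Genes that assemble or accompany the proteasome had means on both sides of 0. Of 9 assembly factors, 5 had positive and 4 negative means, with a median of 0.13, and none passed the threshold. FUB1, which encodes a PI31-like core-binding protein, was the highest, at 0.75, 0.91 and 0.51 in that order (mean 0.72 ± 0.20, SD, n = 3; limma adjusted p = 0.131). PBA1, for a chaperone of the alpha ring, was the lowest, at -0.27, -0.49 and -0.99 (mean -0.59; limma adjusted p = 0.217). UMP1, for the chaperone of core maturation, gave 0.19, -0.48 and 0.15.

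None of the 7 genes for proteasome-associated proteins passed, and the median of their means was -0.49. Their median was 0.11 on replicate 1, -0.47 on replicate 3 and -0.24 on the Cy3 pair. SPG5, for a proteasome regulator of stationary phase, was the highest, at 1.08, 0.99 and 0.67 (mean 0.92 ± 0.21, SD, n = 3; limma adjusted p = 0.0893). ECM29, for a protein that tethers core and regulatory particles, was the lowest, with a mean of -1.03 ± 0.05 over replicate 3 and the Cy3 pair (SD, n = 2; limma adjusted p = 0.128). It had no value on replicate 1.

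Among 18 ubiquitin and shuttle genes 1 rose and none fell, where 1.73% and 0.326% of all genes did. UBI4, the polyubiquitin gene of the stress response, stood at 1.54, 1.32 and 1.20 in that order. It rose by 1.36 ± 0.17 (SD, n = 3; limma adjusted p = 0.0337), or 2.56-fold, and all its values lay above those of every proteasome gene but RPN1 on the Cy3 pair. The call was lost without replicate 1 (adjusted p = 0.0634), without replicate 3 (adjusted p = 0.130) and with the Cy3 pair turned (adjusted p = 0.939). The ubiquitin repeats of UBI4 resemble the ubiquitin parts of RPL40A, RPL40B and RPS31, whose spots could share signal; the part of this in the UBI4 value was not tested. Those genes, chosen after the data were seen, had means of -0.80, -0.84 and -0.15, the last with both signs across replicates. UBC5, a ubiquitin-conjugating enzyme gene named here after its values were seen, stood at 1.26, 1.65 and 0.58 (mean 1.16 ± 0.54; limma adjusted p = 0.104). Its close paralogue UBC4 stood at -0.15, 0.12 and -0.21. DSK2, for a shuttle that brings ubiquitylated proteins to the proteasome, was the lowest of the list, at -0.36. HUL4 had the highest mean, 2.47, from 0.39 on replicate 1 and 4.56 on the Cy3 pair (n = 2; limma adjusted p = 0.278).

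None of 7 genes of the Cdc48 segregase complex passed, with means from -0.47 (OTU1) to 0.18 (UBX2). UBX2 had both signs, at 0.56, 0.35 and -0.37. Of 7 genes that control Rpn4, 6 were tested and none passed. RAD6, for the ubiquitin-conjugating enzyme that works with Ubr2 on Rpn4, was negative and even, at -0.48, -0.69 and -0.53 (mean -0.57 ± 0.11, SD, n = 3; limma adjusted p = 0.171). HSF1, the heat shock factor gene, had the highest mean, 0.26, from 0.62, 0.45 and -0.29. With a dye term its mean was 0.12. PDR3 had a value on replicate 1 alone and was not tested.

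In the list for Gcn4 turnover, 1 of 9 genes rose and none fell, where 1.73% and 0.326% of all genes did. PCL5 encodes a cyclin of the kinase Pho85 that marks Gcn4 for degradation, and it is itself a Gcn4 target. It stood at 2.81, 2.80 and 2.13 in that order, far above the array medians. It rose by 2.58 ± 0.39 (SD, n = 3; limma adjusted p = 0.0126), or 5.97-fold, and lost the call in 1 alternative, with the Cy3 pair turned (adjusted p = 0.921). GCN4 itself stood at 0.84, 0.57 and 0.37, positive throughout, with a mean of 0.59 ± 0.23 (limma adjusted p = 0.180). PHO85 stood at -0.16, 0.01 and -0.05. The ligase genes CDC4, CDC53, SKP1 and CDC34 had means from -0.28 to -0.18. CDC34 had both signs, at -0.885, 0.145 and -0.098, while the others were negative throughout. SSN3, for a kinase that also phosphorylates Gcn4, was the lowest, at -0.60, from -2.54 on replicate 1 and 0.39 and 0.37 on the others.

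**Figure D5:**
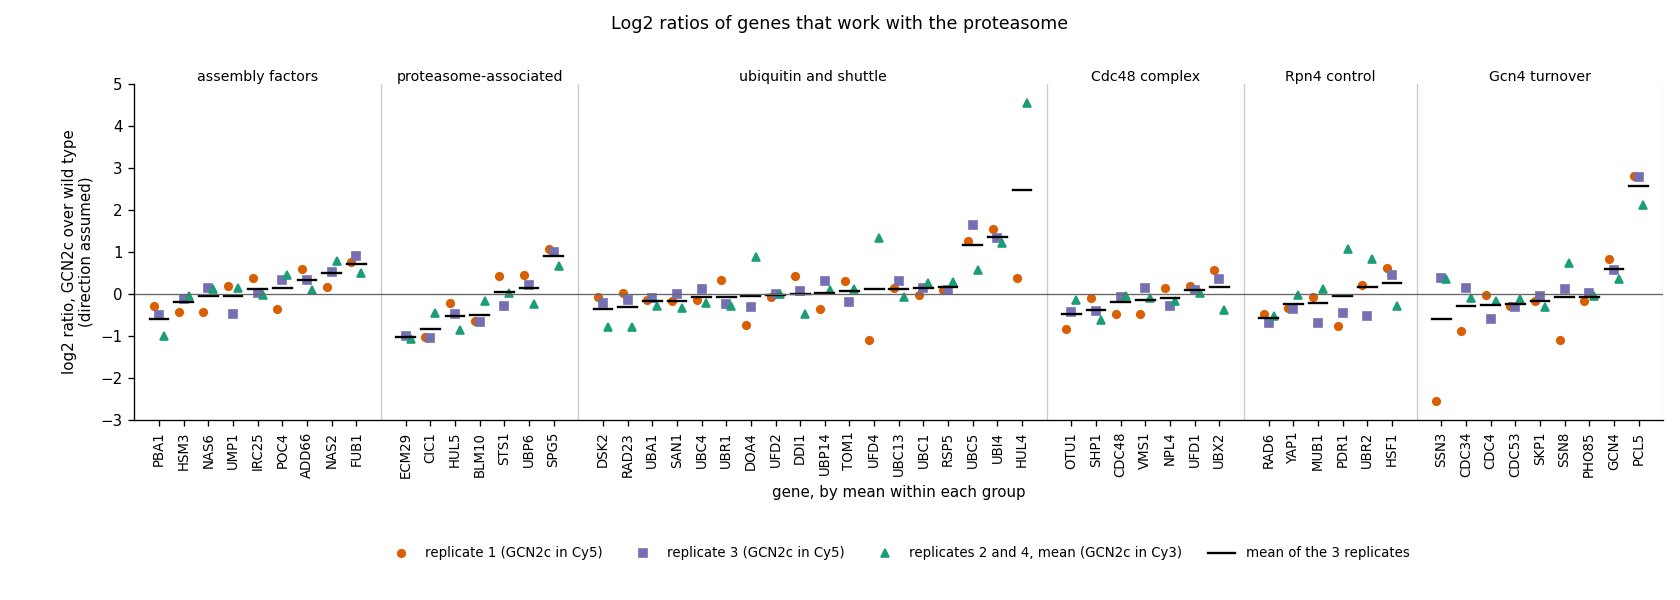
Log2 ratio (vertical axis) of each gene of 6 lists of proteasome partners (horizontal axis, ordered by mean within a list) on replicate 1, replicate 3 and the Cy3 pair, with a bar at the mean. UBI4 and PCL5 passed the threshold, with all values above 1, and most others scatter around 0.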

How the data were processed

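Per the labels, the authors hybridised amino-allyl cDNA from 30 µg of total RNA per strain and left out spots with defects or with a signal not above 2 times the local background. The deposited log2 ratios, 1 per open reading frame, were used without further centring. The number of arrays limits the precision. Log base, centring and direction of these values are not stated. Names were matched to R64 locus tags (5662 of 6211, ignoring case). Replicates 2 and 4 were averaged. The 6130 genes with values on at least 3 of 4 arrays entered an intercept-only limma fit (version 3.58.1, R 4.3.3; eBayes, two-sided, Benjamini-Hochberg at 0.05), after the fit was tested on simulated data. One-class SAM, which the design text names, was computed in Python 3.11.15 with all sign changes of 3 replicates.

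The members and gene lists were chosen with earlier results of these data known. Named genes were the members past the threshold, RPN4, PRE9, the catalytic subunits, the highest, lowest and 3 smallest p-values of each subassembly, the 3 largest SDs, and the extremes and called genes of each list. The other members are given by value. No sequence was used here. Alternatives were a dye term, turned or left-out replicates, all 4 arrays as replicates, centring, scaling, filters and SAM.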

Additional observations from a re-analysis of the deposited data

How the results depend on the processing

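The count of 33 members with a negative mean ranged from 29 to 33 in all alternatives but one, 21 with replicates 2 and 4 turned. No member was called higher in any alternative. Members called lower numbered 4 with the 4 arrays as 4 replicates (PRE1, PRE3, RPT1 and RPN8), which counts nearly the same values as separate samples, 1 without replicates 2 and 4 (RPN1), and 0 in the others. With replicates 2 and 4 turned the medians were 0.047 for core, -0.089 for base and -0.13 for lid. The other alternatives moved them by less than 1 SD, but their order could change, as with a dye term, where the core median was the lowest. Members with negative ratios at an unadjusted p under 0.05 numbered 15 with the 4 arrays as 4 replicates, where 1350 of all 6130 genes did so, and 0 without replicate 3, where 229 of 6118 genes did. For 37 named genes, 470 of 508 alternative values kept direction and call, 4 lost the call, 11 gained it and 23 changed sign. Part of this agreement was fixed in advance. Leaving out replicate 2 or replicate 4 keeps its nearly identical partner, SAM has the same means, and only UBI4 and PCL5 had a call to lose.

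Over all genes, limma called 106 higher and 20 lower. The counts were 472 and 590 with the 4 arrays as 4 replicates, 326 and 264 with a dye term, 273 and 80 without replicates 2 and 4, and 0 and 0 with those replicates turned, where 250 genes had an unadjusted p under 0.05. SAM called 197 higher and 15 lower, and 40 were lower among genes with values on all 4 arrays. Leaving out each replicate gave 61 to 117 higher and 13 to 31 lower.

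With replicates 2 and 4 turned the mean became positive for DSK2 (0.16), ECM29 (0.034), PBA1 (0.076), PRE5 (0.10), PRE7 (0.068), PRE8 (0.18), PUP1 (0.043), RPN13 (0.30), RPN3 (0.10), RPT4 (0.11) and SCL1 (0.14), and negative for HUL4 (-2.09). Without replicates 2 and 4 it was positive for PRE5 (0.026), RPN13 (0.17) and RPN3 (0.03), and after scaling for PRE5 (0.0025) and RPN13 (0.011). Centring each chromosome, chosen after seeing the data, gave 0.045 for RPN13. Leaving out 1 replicate gave means from -0.33 to 0.25 for PRE4, -0.20 to 0.089 for RPN11, -1.09 to 0.38 for SSN3 and -0.013 to 0.18 for UBX2, each turning without replicate 1, and from -0.28 to 0.069 for RPN3, turning without replicate 3. None of these values passed the threshold, and the cause was not tested. The promoter motif counts planned were not run, as no sequence was used here. No further pairing was applied, because each array is itself a ratio of both strains and there is 1 group. The one-class test of these ratios is already paired within arrays.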

Other observations

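In several genes of the partner lists the sign followed the dye orientation. Given here are 3 with the order of RPN1, picked after their values were seen. PDR1, a transcription activator of RPN4 and of drug resistance genes, stood at -0.76 and -0.46 on replicates 1 and 3 and at 1.08 on replicates 2 and 4. DOA4, for a deubiquitinase that recycles ubiquitin, stood at -0.74 and -0.31 on replicates 1 and 3 and at 0.89 on replicates 2 and 4. UFD4, for a ubiquitin ligase, stood at -1.09 on replicate 1 and 1.34 on replicates 2 and 4, with no value on replicate 3. Other genes had the opposite order, such as HSF1 (0.62 and 0.45, then -0.29) and UBX2 (0.56 and 0.35, then -0.37). The share of all genes with such a change of sign was not counted, and the cause was not tested.

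Of the ubiquitin and shuttle genes, RAD23, for a shuttle factor, stood at 0.03 and -0.15 on replicates 1 and 3 and at -0.79 on replicates 2 and 4, and DSK2, for another, at -0.07, -0.22 and -0.78. Over all genes, 3550 of the 6130 tested were lower on replicates 2 and 4 than on the mean of replicates 1 and 3, with missing values left out. CIC1, for a proteasome-binding protein that also acts in making the large ribosomal subunit, stood at -1.01, -1.04 and -0.46 (limma adjusted p = 0.123).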
